A study of Mus musculus with 6 samples.

Results

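Microglia of the mouse septal area are described here, chosen by raw counts of unique molecular identifiers (UMIs, each standing for 1 captured RNA molecule) in each barcode, which stands for a droplet with a nucleus. A barcode was taken as a microglial nucleus when it held at least 500 genes, at most 5% mitochondrial UMIs, at least 3 UMIs in sum of Csf1r, Cx3cr1 and P2ry12, at most 1 UMI in sum of Gad1 and Gad2, and at most 1 UMI of Mrc1. The rule found 1899 nuclei among 54605 barcodes that met the gene and mitochondrial limits, of 55537 deposited. Csf1r is the receptor for colony stimulating factor 1, Cx3cr1 the receptor for the neuronal chemokine fractalkine and P2ry12 a receptor for ADP. Gad1 and Gad2 make GABA in inhibitory neurons, and Mrc1 marks macrophages at the borders of the brain. These genes chose the nuclei, so their values are a description and were not tested.

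The study profiled brain tissue of wild type mice, from the septal area, by droplet RNA sequencing in 6 libraries of 1 group with no treatment or second genotype. The series title speaks of single nuclei and the protocol text of single cells, and the word nuclei follows the title. The labels do not state the age, sex and strain of the mice and how many gave tissue to a library. The libraries are replicates 1 to 6, and as nothing states that they came from separate animals, p-values measure only the spread between these libraries, which may be technical.

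Microglia are the resident macrophages of the brain. They derive from yolk sac precursors, are kept by their own division, and depend on signalling through the receptor Csf1r and on transforming growth factor beta. They survey the tissue with moving processes, follow purines released by damaged cells, clear debris and synapses with the help of complement, and change their gene expression in disease.

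Many nuclei inside the gate also carried RNA of another cell class. Of the 1899 nuclei, 854 held at least 3 UMIs of the markers of at least 1 of 8 other classes (neurons, astrocytes, oligodendrocytes, their precursors, endothelial cells, pericytes, fibroblasts and ependymal cells), and these 854 held 71.8% of all UMIs in the gate. Oligodendrocyte markers reached that level in 322 nuclei, astrocyte markers in 276, neuron markers in 201, ependymal markers in 166 and precursor markers in 149. The limit of 3 UMIs was not scaled to depth, so a lower depth in nuclei below it is partly fixed by the rule. The remaining 1045 nuclei, called single-class microglia here, had a median of 2737 UMIs, against 8106.5 in the 854 mixed nuclei and 4028 in all 1899. The name says only that fewer than 3 UMIs of each other class were found: when the nuclei were grouped by expression, 899 of the 1045 fell in a group led by myeloid genes and 146 in other groups, among them 52 in a group led by genes of neuronal receptors and 45 in one with astrocyte genes. Results are given for both sets, all microglia and single-class microglia.

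Markers that the gate did not use separated the sets further. The UMIs of 12 such genes were summed (among them Tmem119, Siglech, C1qa, C1qb, C1qc, Selplg, Gpr34, Sall1, Trem2, Fcrls and Itgam). At least 3 UMIs of these were found in 92.5% of single-class microglia, in 54.9% of mixed nuclei and in 1.07% of the 46275 other barcodes, all kept barcodes with at most 1 UMI of the gate genes, whose median was 5391 UMIs. Other barcodes hold neurons and glia, including the astrocytes, oligodendrocytes and endothelial cells used as references further on. None of these UMIs was found in 5.26% of single-class microglia and in 33.4% of mixed nuclei. The label microglia held by these markers for most single-class nuclei, while 285 mixed nuclei met it by the gate genes alone.

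The threshold itself lay in a thinly separated range. The 435 members with exactly 3 gate UMIs held 3.68 UMIs of the 12 other genes per 10000 UMIs, and 55.2% of them held none. The 1241 barcodes with exactly 2 gate UMIs that met all other limits held 1.11 per 10000, and 73.3% held none. Among the 1222 members with 5 or more gate UMIs the value was 29.3 per 10000. A further 2378 barcodes had at least 3 gate UMIs but were kept out by 2 or more UMIs of Gad1 and Gad2. They were deep, with a median of 19882 UMIs, and held 1.62 UMIs of the 12 genes per 10000.

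Gate genes were more concentrated in single-class nuclei. Csf1r was detected in 84.0% of single-class microglia and in 49.6% of mixed nuclei, Cx3cr1 in 84.8% and 71.8%, and P2ry12 in 92.3% and 87.8%. All 3 genes were detected together in 699 of the 1045 and in 324 of the 854. In astrocytes, which are not known for these genes and had a median of 4479.5 UMIs, the shares were 1.20% for Csf1r, 6.54% for Cx3cr1 and 10.6% for P2ry12. Astrocytes were chosen with at most 1 gate UMI, which caps these shares. Scrublet, a caller of droplets with more than 1 nucleus, marked 2.97% of single-class microglia, 23.5% of mixed nuclei and 6.44% of other barcodes. Marked nuclei were kept. The part of joined nuclei or of free RNA in the mixed nuclei was not tested.

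Microglia were a small share of the barcodes in every library. The shares were 4.28, 3.40, 4.24, 2.96, 3.102 and 3.04% in replicates 1 to 6, with a mean of 3.504% ± 0.603 (SD, n = 6). Single-class microglia made up 2.39, 1.88, 2.28, 1.71, 1.80 and 1.44%, with a mean of 1.92% ± 0.358 (SD, n = 6). Replicates 1 and 3 were the highest for both sets, and their Wilson 95% intervals (3.89 to 4.70% and 3.79 to 4.73% for all microglia) did not overlap that of replicate 4 (2.66 to 3.30%). These intervals cover counting error only. The number of nuclei per library ranged from 222 to 409 for all microglia and from 105 to 228 for single-class microglia. A share of captured barcodes is not a share of cells in the tissue.

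**Figure D1:**
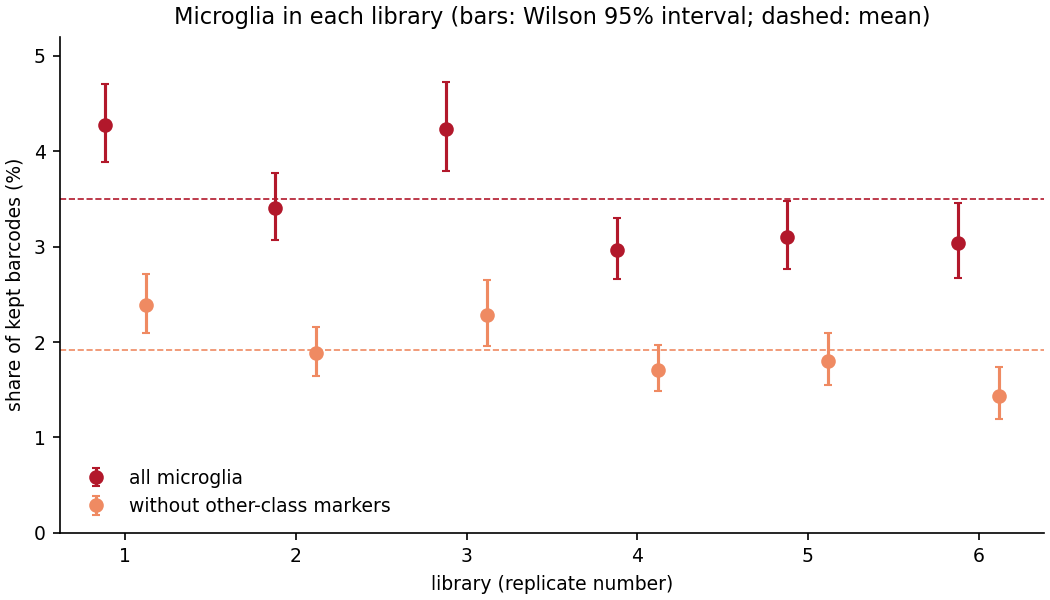
Share of kept barcodes (y axis, percent) that met the microglia rule in each of the 6 libraries (x axis), with Wilson 95% intervals as bars and the mean of the 6 libraries as a dashed line. All microglia range from 2.96 to 4.28% and single-class microglia (without other-class markers) from 1.44 to 2.39%.

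Depth and library checks were made once for the series. The libraries held 70183544 to 95175260 UMIs, of which all microglia held 1512877 to 2492155. No microglial barcode was shared between libraries, and the overlap in barcodes between libraries reached at most 0.433% of the smaller library. Among markers of other immune cells, the summed level of 10 border macrophage genes in single-class microglia was 129 to 168 counts per 1000000 UMIs (CPM) over the libraries. It was 3.43 to 4.69 CPM in other barcodes and 3.67 to 8.40 CPM in astrocytes, and the 12 microglial genes summed to 4039.93 to 5064.75 CPM in single-class microglia. The monocyte genes summed to 5.49 to 39.9 CPM in single-class microglia, 83.9 to 152 CPM in all microglia and 90.04 to 118 CPM in other barcodes. In endothelial cells they summed to 450 to 617 CPM. Vcan is in this list and is also a precursor marker that was limited in single-class nuclei. Their low monocyte sum is thus partly fixed by how they were chosen. The mast cell genes summed to 1.55 to 9.497 CPM in single-class microglia, against 9.81 to 11.8 CPM in other barcodes. The 6 neutrophil genes summed to 0 to 2.52 CPM, the 5 B cell genes to 0 to 13.7 CPM and the 7 T or NK cell genes to 0 to 13.8 CPM. At least 3 UMIs of the border macrophage genes were found in 30 of the 1045 nuclei. Mrc1 is among these 10 genes and was limited by the gate, so their sum and this count are partly bounded by the rule.

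Genes outside the gate that mark resting microglia were high in every library. Siglech, a sialic acid binding lectin, was at 990.2, 1082 and 1197 CPM (lowest, median and highest library) in single-class microglia, at 397 to 515 CPM in all microglia and at 1.24 to 2.20 CPM in other barcodes. No library of either microglial set overlapped the other barcodes, and all microglia lay below single-class microglia. The difference from other barcodes was 7.89 ± 0.08 on the log2 scale (± SE) for all microglia and 9.01 ± 0.09 for single-class microglia. Differences of this kind come from edgeR's quasi-likelihood test on UMIs summed per library, with the library as a block. A gene is called higher or lower when its Benjamini-Hochberg adjusted p is under 0.05, and differences named as higher or lower passed it unless said otherwise.

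The other homeostatic genes showed the same order. Tmem119, a membrane protein used to tell microglia from blood-derived macrophages, was at 51.3, 61.4 and 68.7 CPM in single-class microglia against 0.259 to 0.484 CPM in other barcodes. The libraries of the 2 groups did not overlap. Selplg, the ligand of P-selectin, and the Fc receptor-like Fcrls were higher by 7.28 ± 0.09 and 7.78 ± 0.12 (log2) in single-class microglia. Of the 20 genes of the homeostatic list all 20 were tested and all 20 were higher in both sets, with a median log2 difference of 4.22 in all microglia and 5.23 in single-class microglia. Over all genes tested, 23.7% were higher and 24.6% lower in all microglia (19039 genes, median log2 difference -0.02), and 22.6% were higher and 33.6% lower in single-class microglia, in which the median over all genes was -0.27.

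Detection per nucleus followed the sums. At least 1 UMI of Siglech was found in 85.8% (Wilson 95% interval 83.6 to 87.8%) of single-class microglia and in 1.11% of astrocytes, although astrocytes were deeper (median 4479.5 against 2737 UMIs). With every nucleus thinned to 1000 UMIs the shares were 65.2% and 0.281%, over 1041 and 6396 nuclei deep enough. Tmem119 was found in 17.3% of single-class microglia unthinned and in 6.72% thinned, against 0.343% and 0.0782% of astrocytes. A single nucleus therefore often showed no Tmem119 while the summed level was far above every reference class. Mertk, a receptor for dying cells and debris that astrocytes also use, was found in 92.0% of single-class microglia and in 79.6% of astrocytes.

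**Figure D2:**
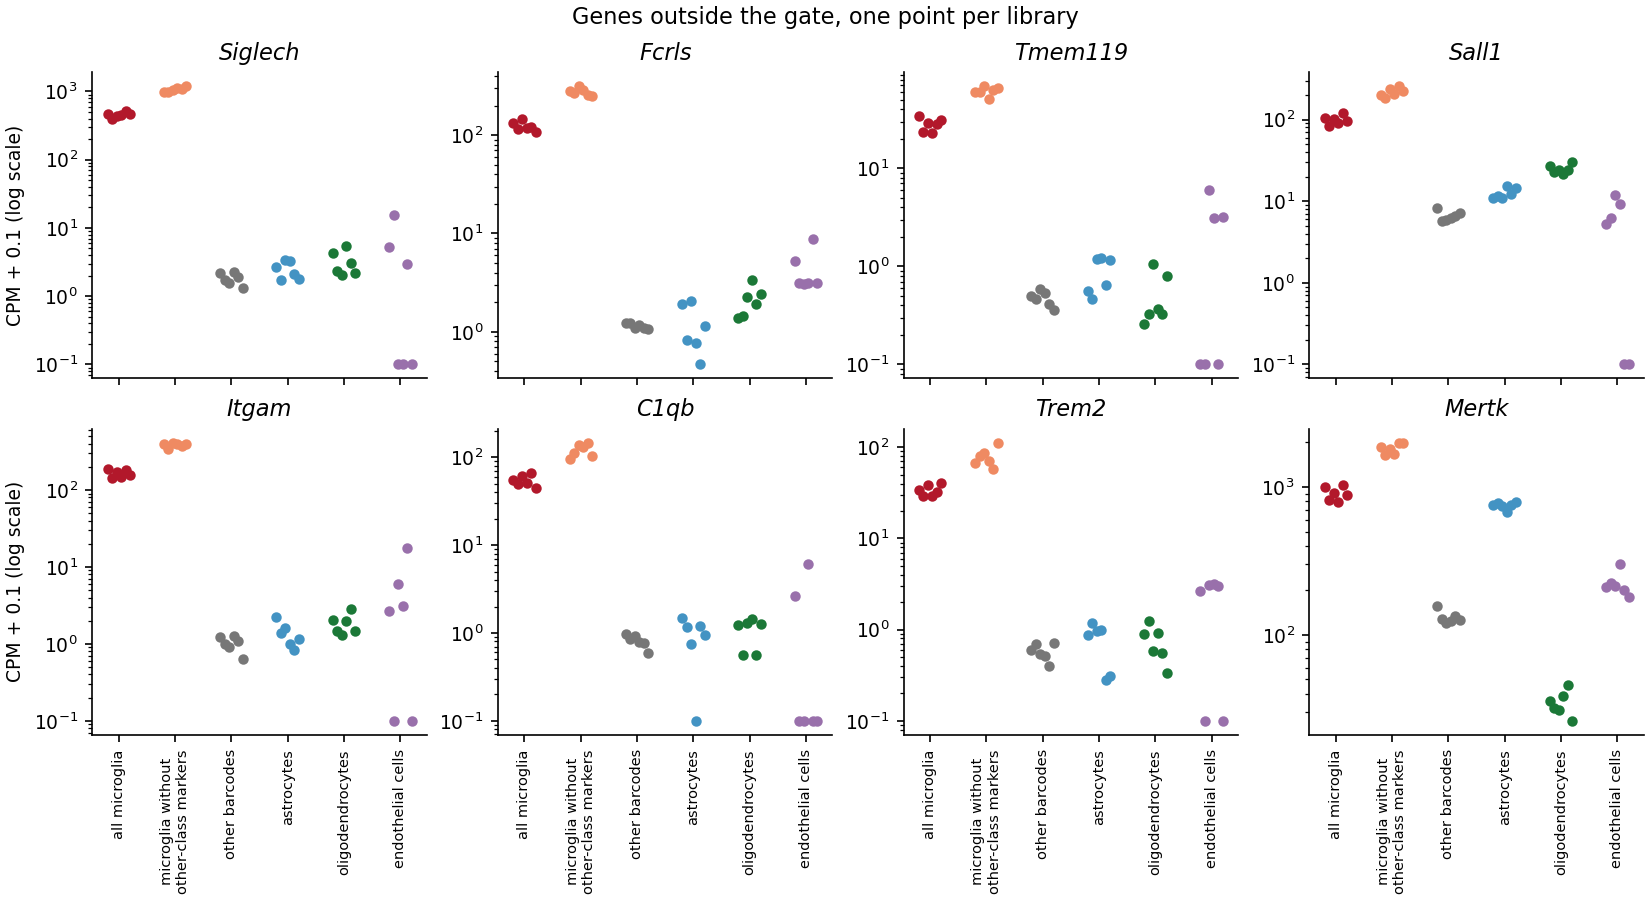
Level of 8 genes that the gate did not use (y axis, CPM + 0.1, log scale; 1 panel per gene) in all microglia, single-class microglia, other barcodes, astrocytes, oligodendrocytes and endothelial cells (x axis), with 1 point per library. The 6 single-class points lie above every reference point in each panel; Mertk is also at 674 to 797 CPM in astrocytes.

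Transcription factors of the myeloid lineage were higher throughout. Spi1, which encodes the pioneer factor PU.1, was at 134, 169.7 and 198 CPM in single-class microglia against 0.166 to 0.618 CPM in other barcodes. Irf8, an interferon regulatory factor needed for microglial development, was at 163, 199 and 244 CPM against 0.166 to 0.572 CPM. Neither gene's libraries overlapped between the groups. Ikzf1 and Runx1, both factors of blood cell development, were higher by 8.41 ± 0.09 and 8.08 ± 0.09 (log2). Sall1, which keeps microglial identity, was at 219 ± 26.5 CPM (SD, n = 6), against 24.9 ± 3.12 CPM in oligodendrocytes and 6.56 ± 0.932 CPM in other barcodes. Mef2c, also a neuronal factor, was higher by 2.82 ± 0.07 (log2). All 21 tested factors of the list of 22 were higher in all microglia (median log2 difference 3.78), and all 20 tested were higher in single-class microglia (4.26).

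The DNA motif bound by PU.1 was searched in RefSeq promoter windows of the named genes that were higher than in other barcodes. These windows show where the letters of the motif stand in genes that were high together, and they are annotation, not a measurement of binding. The motif was GAGGAAGT on either strand within the 250 bases before the annotated start (build GRCm38.p6). It stood in 5 of 62 windows, which belong to 47 of 66 such genes that matched by symbol, or 8.07% of windows, against 2.44% of all 32851 windows of the table. A match is a description of the sequence and not a site in use. The 5 windows are shown 5′ to 3′ on the strand of the gene with the motif in capitals, as GAGGAAGT or, where it lies on the other strand, as ACTTCCTC. The stretch for Inpp5d, which encodes the lipid phosphatase SHIP1, is chr1:87620232-87620311 on the plus strand, and that for C1qc, a subunit of complement C1q, is chr4:136893042-136893164 on the minus strand. Those for Havcr2, which encodes the receptor TIM-3, and for Nlrp1b, an inflammasome sensor, are chr11:46454863-46454930 on the plus strand and chr11:71230762-71230889 on the minus strand. Vav1, an exchange factor that activates small GTPases, has chr17:57279029-57279099 on the plus strand.
Inpp5d: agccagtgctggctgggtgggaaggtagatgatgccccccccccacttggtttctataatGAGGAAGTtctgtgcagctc
C1qc: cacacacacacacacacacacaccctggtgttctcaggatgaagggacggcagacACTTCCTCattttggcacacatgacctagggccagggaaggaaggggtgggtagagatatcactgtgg
Havcr2: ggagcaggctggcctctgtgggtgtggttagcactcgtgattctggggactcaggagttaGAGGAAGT
Nlrp1b: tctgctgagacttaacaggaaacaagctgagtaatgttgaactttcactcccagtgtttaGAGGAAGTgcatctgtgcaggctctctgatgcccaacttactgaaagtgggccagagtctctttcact
Vav1: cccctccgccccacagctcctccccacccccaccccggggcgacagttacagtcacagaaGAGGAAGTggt
As read, the motif begins 8 bases before RefSeq's start in Havcr2, 11 in Vav1, 20 in Inpp5d, 96 in Nlrp1b and 195 in C1qc. RefSeq's start lay 4 bases from the nearest GENCODE transcript start in Havcr2 and 38 bases in C1qc, and at a GENCODE start in the other 3 genes. In single-class microglia the 5 genes were higher than in other barcodes by 8.58, 6.75, 7.66, 8.77 and 8.86 (log2, in the order of the windows).

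Growth factor and cytokine receptors formed one of the broadest groups. Tgfbr1, the type I receptor for transforming growth factor beta, was at 2017, 2175 and 2451 CPM in single-class microglia and at 29.4 to 33.7 CPM in other barcodes. Its partner Tgfbr2 was at 401 ± 48.8 CPM (SD, n = 6) against 12.2 ± 1.52 CPM, but endothelial cells held 184 CPM. Csf3r, the receptor for granulocyte colony stimulating factor, was at 399, 453 and 577 CPM against 0.628 to 1.07 CPM. The 3 receptor genes were apart from other barcodes in all 6 libraries. Il10ra, a receptor chain for interleukin 10, Csf2rb, the shared chain of the interleukin 3 and 5 receptors, and Il21r were higher by 8.98 ± 0.17, 8.03 ± 0.31 and 7.32 ± 0.21 (log2). Of 26 tested receptors 25 were higher and 1 lower in all microglia (median log2 difference 3.45), and 24 were higher and 2 lower in single-class microglia (4.44). Il1r1, an interleukin 1 receptor chain, was lower in both (-0.94 ± 0.28 and -1.51 ± 0.48). In all microglia its call was lost, leaving 0 lower receptors by edgeR, with predicted doublets left out, with no replicate block and with a gate of 5 UMIs. The partner chain of Il1r1, Il1rap, was higher in all microglia (0.39 ± 0.06) and lower in single-class microglia (-1.01 ± 0.11), and oligodendrocytes held 565 CPM of it.

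Ligands that act on these receptors stood in part in other cells. Tgfb1 itself was at 94.97, 118 and 145 CPM in single-class microglia, at 0.600 to 0.885 CPM in other barcodes and at 24.7 CPM on average in endothelial cells. Nrros, which holds latent transforming growth factor beta at the surface of microglia, was higher by 5.69 ± 0.13 (log2), and Pros1, a bridging ligand of Mertk, by 4.07 ± 0.09. RNA of the receptor and of this ligand was thus counted in the same class. Cx3cl1, the fractalkine ligand of Cx3cr1, was lower, at 6.21 to 14.6 CPM in all microglia against 19.2 to 25.9 CPM in other barcodes (-1.05 ± 0.13, log2). Thinned to 1000 UMIs per nucleus, the difference was -0.45 and not past the threshold (adjusted p = 0.195 by edgeR). Il34, a ligand of Csf1r made by neurons, was lower, with log2 differences of -0.72 in all and -2.31 in single-class microglia. Csf1, the other ligand, was at 55.2 CPM in oligodendrocytes and 6.11 CPM in single-class microglia. It did not pass in all microglia (0.21 ± 0.13, adjusted p = 0.19 by edgeR) and was lower in single-class microglia (-1.12 ± 0.31). Of 13 tested ligands 5 were higher and 6 lower in all microglia, and 4 were higher and 7 lower in single-class microglia. Among all genes tested, 23.7% were higher and 24.6% lower in all microglia, and 22.6% and 33.6% in single-class microglia.

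Purine sensing separated by gene. P2ry6, a UDP receptor tied to phagocytosis, was at 135, 159.8 and 192 CPM in single-class microglia against 0.193 to 0.325 CPM in other barcodes. P2ry13, an ADP receptor, was at 16.4, 27.2 and 54.2 CPM against 0.512 to 0.881 CPM. Entpd1, the ectoenzyme that degrades ATP, was at 630.1, 654 and 765 CPM against 21.7 to 28.3 CPM, with 305 CPM on average in endothelial cells. These libraries did not overlap between microglia and other barcodes. P2rx7, an ATP-gated channel, was higher by 2.95 ± 0.10 (log2). Nt5e, which makes adenosine, was lower, with log2 differences of -0.39 in all and -1.76 in single-class microglia, and P2ry14 and the channel Panx1 were lower in both sets too. In all, 8 of 17 tested genes were higher and 3 lower in all microglia, and 9 were higher and 4 lower in single-class microglia. The shares over all genes tested were 23.7% higher and 24.6% lower in all microglia, and 22.6% and 33.6% in single-class microglia.

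Among complement genes, C1q subunits and the chains of complement receptor 3 were higher, while C3 had too few UMIs to be tested. C1qb was at 95.6, 122 and 148 CPM in single-class microglia and at 0.499 to 0.868 CPM in other barcodes. C1qa and C1qc, the other C1q subunits, were at 57.5 to 86.8 CPM and 73.00 to 137 CPM. Itgam, the alpha chain of complement receptor 3, was at 339, 392 and 414 CPM against 0.536 to 1.16 CPM, and its beta chain Itgb2 was higher by 6.88 ± 0.29 (log2). Receptor chains and C1q were apart from other barcodes in 6 of 6 libraries. C3, the central component, was counted with only 5 UMIs in all microglia, 3 of them in single-class nuclei. It did not pass the filter on low counts, so no direction is given for it. The complement regulators Cd59a and Cfp were lower in all microglia, with log2 differences of -0.83 and -0.43. Of 15 tested genes 11 were higher and 2 lower in all microglia, and 11 were higher and 3 lower in single-class microglia. Without replicate 1 or without replicate 2, 0 genes of the list were lower in all microglia by edgeR. DESeq2, and edgeR after thinning to 1000 UMIs, also gave 0 lower genes in all microglia.

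Receptors for antibodies and microbial patterns were all higher. Ly86, the partner of the receptor CD180, was at 735, 853 and 1074 CPM in single-class microglia against 1.53 to 3.09 CPM in other barcodes. Tlr7, a sensor of single-stranded RNA, was at 106, 157 and 187 CPM against 0.406 to 0.606 CPM. Cd33, a sialic acid receptor, and the C-type lectin Clec4a2 were higher by 8.21 ± 0.16 and 8.04 ± 0.34 (log2). All 6 libraries of microglia lay above all 6 of other barcodes for each of these 4 genes. All 24 tested genes were higher in all microglia (median log2 difference 5.27), as were all 23 tested in single-class microglia (6.63). Clec7a of this list has no row of that name in the deposited gene tables.

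Genes of phagocytosis and the lysosome were higher by a smaller median. Ctss, the lysosomal protease cathepsin S, was at 269, 317 and 421 CPM in single-class microglia against 1.07 to 2.10 CPM in other barcodes. Trem2, a lipid receptor, and Tyrobp, its signalling adaptor, were at 58.3 to 113 and 35.01 to 66.9 CPM against 0.297 to 0.610 and 0.115 to 0.317 CPM. Havcr2 was higher by 7.66 ± 0.16 (log2). All 4 genes were apart from other barcodes in every library. Mertk was at 1830.4 ± 151 CPM (SD, n = 6) in single-class microglia and 751 ± 43.2 CPM in astrocytes. Axl, a related receptor, did not pass in all microglia (0.06 ± 0.16) and was lower in single-class microglia (-1.01 ± 0.38). Of 25 tested genes 22 were higher and 0 lower in all microglia (median 2.65, edgeR; 3 did not pass), and 23 of 24 were higher and 1 lower in single-class microglia (3.60).

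Signalling and motility genes held many of the most distinct genes. Inpp5d was at 1412, 1597 and 1764 CPM in single-class microglia against 2.31 to 4.39 CPM in other barcodes. Vav1 was at 152, 182 and 189.9 CPM against 0.202 to 0.464 CPM, and Blnk, an adaptor of immune receptors, at 282 to 428 CPM against 0.600 to 1.28 CPM. Each was apart from other barcodes in 6 of 6 libraries, though endothelial cells held 103 CPM of Inpp5d. Arhgap45, a GTPase activating protein, had 452, 484 and 611 CPM in single-class microglia against 0.443 to 0.773 CPM. Nckap1l, the blood cell subunit of the WAVE complex that drives actin growth, was higher by 8.33 ± 0.11 (log2), the actin regulator Fgd2 by 8.40 ± 0.11 and the myosin Myo1f by 8.18 ± 0.11. In the signalling list 22 of 24 genes were higher and 1 lower in all microglia (median 5.60), and 23 were higher and 1 lower in single-class microglia (6.72). In the list of motility, integrins and actin 23 of 24 were higher in both sets (3.52 and 4.60).

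**Figure D3:**
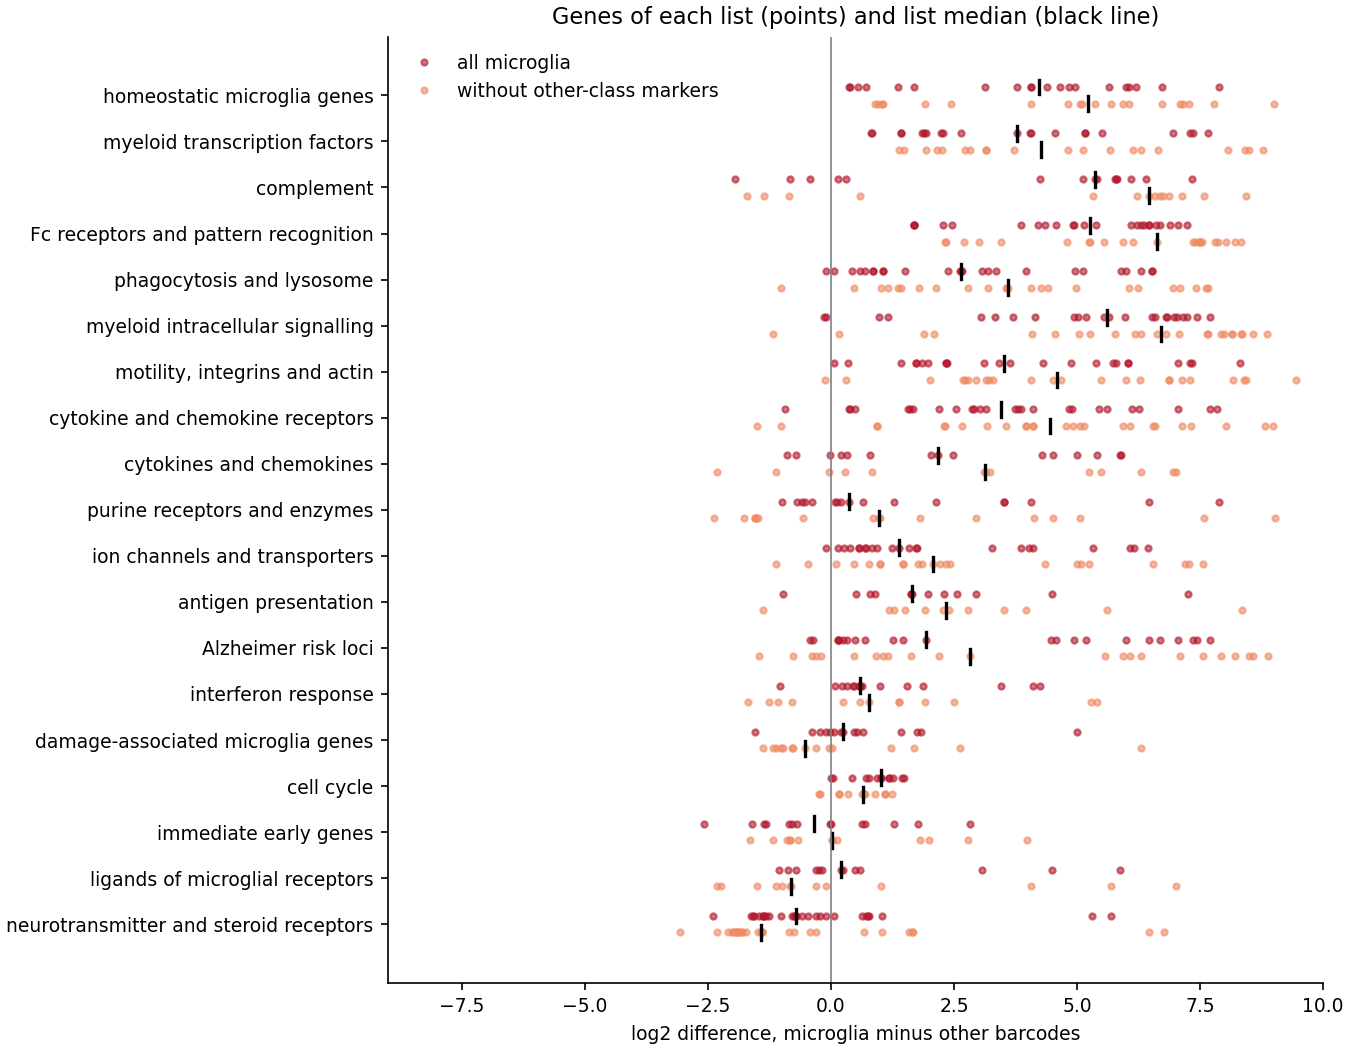
Log2 difference between microglia and other barcodes (x axis) for the genes of 19 lists (y axis), each point a gene, dark for all microglia and light for single-class microglia, with the median over all tested genes of the list as a black line; a gene with 0 UMIs in the microglial set is not drawn as a point. The median is above 4 for homeostatic genes, complement, pattern receptors and signalling in both sets, and below 0 for neurotransmitter and steroid receptors.

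Several genes linked to activated states had only a few UMIs. For the damage-associated list, the single-class nuclei together held 2 UMIs of Cst7, 1 of Spp1, 7 of Itgax and 5 of Lpl. Cd9, a tetraspanin, was at 64.2, 83.7 and 105 CPM in single-class microglia against 18.9 to 26.8 CPM in other barcodes and was higher by 1.68 ± 0.12 (log2). Cd52, a surface glycoprotein, and the chemokine Ccl6 were the other higher genes of the list in this set. Apoe, the lipid carrier that astrocytes make at 442 ± 62.9 CPM (SD, n = 6), was at 79.2, 101 and 123 CPM in single-class microglia and 90.4, 101 and 126 CPM in other barcodes, and these ranges overlapped. Its direction depended on the set: 0.24 ± 0.07 in all microglia (adjusted p = 0.01 by edgeR) and -0.30 ± 0.10 in single-class microglia (adjusted p = 0.0044 by edgeR), and it was also negative with nuclei thinned. In all microglia Apoe did not pass without replicate 3 (0.15). The median log2 difference over all genes tested in single-class microglia was -0.27, so the negative value of Apoe there lay near the middle of all genes. In all microglia 6 of 15 tested genes of the list were higher, 1 was lower and 8 did not pass, with a median of 0.24. In single-class microglia 3 of 15 were higher and 6 lower, with a median of -0.53. Over all genes tested, 23.7% were higher and 24.6% lower in all microglia, and 22.6% were higher and 33.6% lower in single-class microglia.

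Cytokines were counted sparsely. Il1a, which encodes interleukin 1 alpha, was at 15.2, 25.9 and 30.2 CPM in single-class microglia against 0.0773 to 0.260 CPM in other barcodes. Il1b was counted with 3 UMIs in the 1045 nuclei, Tnf with 2 and Il10 with 0, which for Il10 allows up to 0.287% of nuclei to hold a UMI. These low counts do not show absence at a median of 2737 UMIs per nucleus. Pdgfb, a growth factor for pericytes, was at 73.9 ± 10.6 CPM (SD, n = 6) in single-class microglia and at 138 CPM on average in endothelial cells, and Il16 was higher by 3.12 ± 0.24 (log2). Of 15 tested cytokines 11 were higher and 1 lower in all microglia, and of 14 tested 9 were higher and 3 lower in single-class microglia. The shares over all genes tested were 23.7% higher and 24.6% lower in all microglia, and 22.6% and 33.6% in single-class microglia.

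Genes of antigen presentation that were higher than in other barcodes included class I genes and costimulators. B2m, the light chain of class I molecules, was at 30.4, 44.1 and 74.1 CPM in single-class microglia against 2.26 to 2.85 CPM in other barcodes. Cd86, a costimulator of T cells, was at 222, 249 and 316 CPM against 0.333 to 1.01 CPM, and Cd80, its relative, was higher by 3.52 ± 0.23 (log2). The groups did not overlap for these genes. The class II genes H2-Aa and Cd74 were counted with 0 and 5 UMIs in single-class microglia. Of 13 tested genes 12 were higher and 1 lower in all microglia, and 11 of 12 were higher and 1 lower in single-class microglia; the lower gene in both was Ciita, the activator of class II genes (-0.97 ± 0.23 in all microglia). In the interferon response list Trim30a was higher by 5.28 ± 0.15 (log2) and Ifih1, an RNA sensor, by 2.51 ± 0.24, while endothelial cells held 82.1 CPM of Ifih1 against 23.4 CPM in single-class microglia. In that list 8 of 16 tested genes were higher and 0 lower in all microglia by edgeR (8 did not pass). In single-class microglia 6 of 13 were higher and 1 lower. Among all genes tested, 23.7% were higher and 24.6% lower in all microglia, and 22.6% and 33.6% in single-class microglia.

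**Figure D4:**
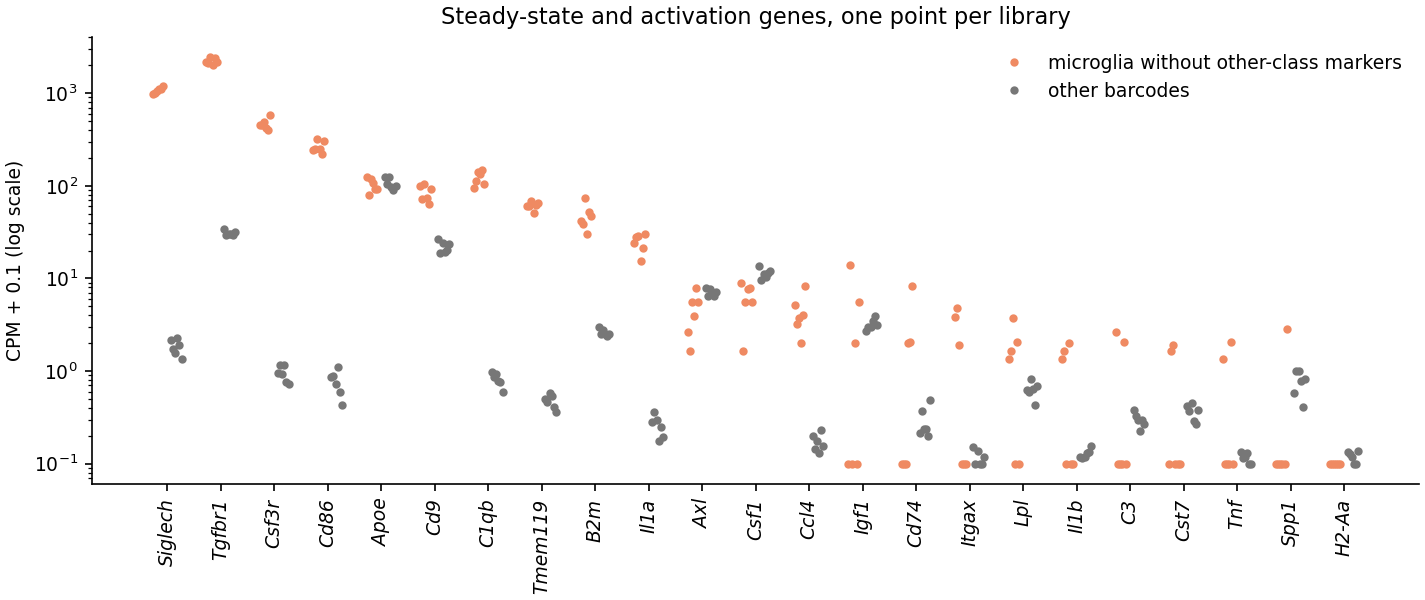
Level (y axis, CPM + 0.1, log scale) of steady-state genes and of genes linked to activated microglia (x axis) in single-class microglia and other barcodes, with 1 point per library. Siglech and Tgfbr1 lie far above other barcodes in all 6 libraries, Apoe overlaps, and Cst7, Tnf, Spp1 and H2-Aa are at 0 in most or all single-class libraries.

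Channels and transporters included a few with large differences. Slco2b1, an organic anion transporter, was at 556, 652 and 719 CPM in single-class microglia, 2.59 to 3.61 CPM in other barcodes and 195 CPM on average in endothelial cells. Slc11a1, a metal transporter of phagosomes, Abca9 and the proton channel Hvcn1 were higher by 7.28 ± 0.21, 7.20 ± 0.10 and 6.54 ± 0.25 (log2). Kcnk13, a potassium channel that sets the microglial resting potential, was at 284 ± 34.8 CPM (SD, n = 6) against 320.2 ± 20.9 CPM in oligodendrocytes, and these ranges overlapped. In the list 22 of 23 tested genes were higher in all microglia (median 1.39), and 19 were higher and 2 lower in single-class microglia (2.07).

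Receptors for neurotransmitters and steroids were mostly lower. Grm5, a glutamate receptor, was at 593 to 1269 CPM in single-class microglia, at 2791 to 3285 CPM in other barcodes, and at 537 to 763 CPM in astrocytes. Drd2, a dopamine receptor, was at 1.81 to 7.78 CPM against 18.8 to 24.2 CPM, and Htr7, a serotonin receptor, and Gria1, a glutamate channel subunit, were lower, with log2 differences of -1.73 and -1.99. These receptor genes were thus below other barcodes but above 0 in single-class microglia. Grm5 was detected in 78.6% of single-class microglia, 83.8% of astrocytes, 78.6% of oligodendrocytes and 75.8% of endothelial cells. Of 29 tested genes 7 were higher and 19 lower in all microglia, and 6 were higher and 20 lower in single-class microglia. Among all genes tested, 23.7% were higher and 24.6% lower in all microglia, and 22.6% and 33.6% in single-class microglia. The higher genes of the list were thus about as frequent as among all genes. Among those higher in both were the adrenergic receptor Adrb1 (1.65 ± 0.19, log2), the cannabinoid receptor Cnr2 (6.77 ± 0.49; 28 UMIs), the histamine receptor Hrh2 (1.58 ± 0.22), the glucocorticoid receptor Nr3c1 (1.03 ± 0.08) and the estrogen receptor Esr1. Esr1 was at 30.4, 52.6 and 60.4 CPM in single-class microglia and 12.3 to 14.98 CPM in other barcodes, without overlap.

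Genes at loci of Alzheimer disease risk were mostly higher, while the count of higher cell cycle genes depended on the set and the setting. Abi3, an actin regulator, was at 188, 211 and 241 CPM in single-class microglia against 0.248 to 0.510 CPM in other barcodes; Inpp5d, Spi1 and Cd33, given above, belong to the same list. Bin1, a membrane-bending protein, was at 583 ± 75.1 CPM (SD, n = 6) in single-class microglia and at 850.3 ± 51.4 CPM in oligodendrocytes, whose 6 libraries all lay above those of microglia. In this list 19 of 23 genes were higher and 2 lower in all microglia (median 1.94), and 18 were higher and 3 lower in single-class microglia (2.82). Of 13 tested cell cycle genes 9 were higher in all microglia and 3 of 12 in single-class microglia. Over all genes tested, 23.7% were higher and 24.6% lower in all microglia, and 22.6% and 33.6% in single-class microglia. Without replicate 2 the count of cell cycle genes in all microglia was 4, and after thinning to 1000 UMIs it was 0 by edgeR. Without replicate 5 the count in single-class microglia was 0 by edgeR. Top2a, a topoisomerase of dividing cells, was at 8.59 to 26.5 CPM in all and 0 to 15.6 CPM in single-class microglia, and 91.0 CPM in a group of 136 nuclei with precursor genes described below. Immediate early genes had no common direction, with 5 higher and 6 lower of 14 in all microglia; Btg2 was higher by 1.29 ± 0.15 (log2) and Nr4a1 differed by -0.79 ± 0.20 in all microglia, but by -0.11 after thinning to 1000 UMIs, not past the threshold.

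The genes with the largest differences from other barcodes, by a rule on size, level and all 6 libraries, were myeloid genes and unnamed transcripts. Bin2, a membrane-shaping protein of blood cells, led the list at 196, 213 and 253 CPM in single-class microglia against 0.111 to 0.297 CPM, a difference of 8.40 ± 0.13 in all and 9.57 ± 0.17 (log2) in single-class microglia. After it came Arhgap45, Siglech, P2ry6, the immune receptor Cd300c2 (9.02 ± 0.22), Il10ra, Abi3, Vav1, Csf3r, Irf8 and Nlrp1b (8.77 ± 0.13). The predicted genes Gm50035, Gm10790, Gm40645 and Gm2629 stood among the 15 as well, with Gm10790 at 779 to 906 CPM against 1.27 to 2.01 CPM. At the other end, the chloride channel genes Ano2 and Ano1 were lower in all microglia, with log2 differences of -2.64 and -2.40. The peptidase Cpa6 (-2.63), the motor Myo5b (-2.28) and B020031H02Rik (-2.14) were the other lower genes named by the rule. Ano2 was at 16.9 ± 10.01 CPM (SD, n = 6) in single-class microglia, 11.8 ± 2.47 CPM in astrocytes, 11.7 ± 3.45 CPM in oligodendrocytes and 100.1 ± 4.25 CPM in other barcodes.

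Against single reference classes, genes from the same 15 were among the leading ones. Compared with 6410 astrocytes, 4392 of 13967 tested genes (31.4%) were higher and 4457 (31.9%) lower in all microglia; in single-class microglia 29.8% were higher and 33.0% lower. Arhgap45 was highest, with 0.310 CPM in astrocytes and a difference of 8.94 ± 0.16 (log2). Genes lower than in astrocytes were Aqp9, a channel for glycerol and water (-2.91 ± 0.18), Ppara, a regulator of lipid use (-2.70 ± 0.12), Atp13a4, Fam20a and B230323A14Rik. Fam20a was at 304 ± 11.5 CPM (SD, n = 6) in astrocytes, 52.1 ± 6.51 CPM in all microglia and 19.5 ± 6.40 CPM in single-class microglia, with log2 differences of -2.71 and -4.22. Compared with 6213 oligodendrocytes, 4588 of 13050 genes (35.2%) were higher and 4253 (32.6%) lower in all microglia, and 29.9% were higher and 29.4% lower in single-class microglia. The kinase subunit Pik3cg (7.59 ± 0.21), Bin2, Tmem273, Cd300c2 and Abi3 led the higher genes. Carns1, which makes carnosine, and the mechanosensitive channel Piezo2 were lower, with log2 differences of -3.23 and -3.46 in all microglia and -5.70 and -3.95 in single-class microglia. For Fam20a, Carns1 and Piezo2 the difference was larger in the single-class set, and the change between sets was not tested. Astrocyte and oligodendrocyte markers were limited in single-class nuclei, so a larger difference for genes of these classes is partly fixed by that choice.

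The genes that led against endothelial cells had no UMI in that class. Compared with 823 endothelial nuclei, 2708 of 9878 genes (27.4%) were higher and 2424 (24.5%) lower in all microglia, and 24.7% were higher and 24.9% lower of 6351 in single-class microglia. Irf8 had 0 UMIs among 2058777 in endothelial nuclei, against 67.8 to 101 CPM in all microglia, so it was at least 58.2-fold higher when 3 UMIs over the endothelial set are taken as the floor. The same holds for the macrophage receptor Adgre1 (at least 45.5-fold) and Ncf1, a subunit of the oxidase that makes superoxide (at least 33.4-fold). In the other direction Robo4, a receptor that stabilises vessels, had 0 UMIs among 12046333 in all microglia and was at least 366-fold lower than its 91.1 ± 12.5 CPM (SD, n = 6) in endothelial cells. Slco1a4, an organic anion transporter of brain vessels, was at 2.95 to 33.9 CPM in all microglia, 0 to 7.60 CPM in single-class microglia and 3927 to 4885 CPM in endothelial cells. Both vessel genes were thus at 0 or at a small part of their endothelial level in microglia. The 4 comparisons share the microglial sums and are not independent of each other.

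Grouping the 1899 nuclei by their expression gave 9 groups, and most groups had genes of another class among their leading genes. Group 1, with 920 nuclei and a median of 2611 UMIs, had 21 nuclei with other-class markers (2.28%), and its leading genes were Inpp5d, Pik3ap1, Nckap1l, Arhgap45 and Siglech. It made up 43.2 to 51.5% of the microglia of each library. In group 2 (199 nuclei) the myelin genes Mbp and Mobp were among the leading genes, in group 4 (138 nuclei) the astrocyte genes Slc6a11 and Aldh1l1, in group 5 (136 nuclei) the precursor genes Pdgfra, Vcan and Cspg4, and in group 6 (108 nuclei) ciliary genes such as Dnah12. Group 3 (191 nuclei) led with genes such as Grin2a and Chrm3, receptors of neurons, and group 7 (89 nuclei) with Ebf2, Corin and Sema3a. Groups 8 and 9 (66 and 52 nuclei) had the astrocyte glutamate transporter Slc1a2 among their leading genes. In group 8, however, 93.9% of nuclei held oligodendrocyte markers and 68.2% astrocyte markers, and 36 of the 66 were predicted doublets. In group 9, 84.6% held astrocyte markers and 0 of the 52 held oligodendrocyte markers or were predicted doublets. These leading genes come from the nuclei that were grouped and are a description, with no test.

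Some of the groups held little sign of microglia beyond the gate. Per 10000 UMIs, the 12 microglial genes outside the gate reached 58.5 UMIs in group 1, 20.4 in group 2 and 19.2 in group 4, but 1.72 in group 3 and 0.363 in group 9, against 0.388 in other barcodes. Siglech had 0 UMIs in the 52 nuclei of group 9, while their astrocyte gene Slc1a2 was at 7551 CPM. Group 9 thus met the rule with no Siglech, and it is called by its number here. Thinned to 1000 UMIs, gate counts and counts of the 12 genes had a Spearman correlation of 0.58 over 1895 nuclei and 0.25 over 1041 single-class nuclei, which share libraries and are given as a description.

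**Figure D5:**
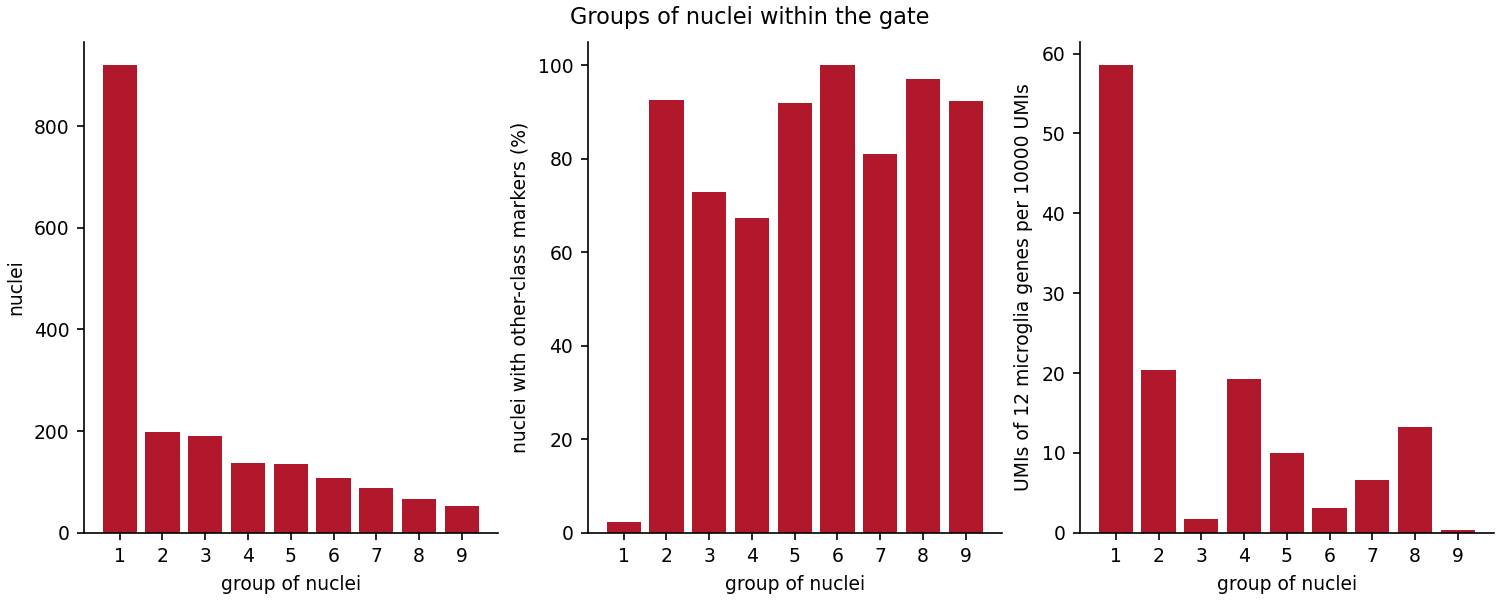
Number of nuclei (left), share with other-class markers (middle, percent) and UMIs of the 12 microglial genes outside the gate per 10000 UMIs (right) in the 9 groups of nuclei within the gate (x axis, group number). Group 1 has 920 nuclei, 2.28% with other-class markers and 58.5 such UMIs per 10000, and no other group exceeds 20.4 per 10000.

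Between libraries the microglial sums were close, and the most variable genes were mostly lower in single-class microglia. Over 2146 genes of at least 100 CPM in all microglia, the median SD of log2 CPM over the 6 libraries was 0.12. Cpne4, a calcium-binding protein, had the largest, at 0.76, with 107.5, 159, 76.6, 131, 41.6 and 169 CPM in replicates 1 to 6. Grin2a, a glutamate receptor subunit, followed at 0.70, with 312 CPM in replicate 4 and 83.3 CPM in replicate 5. In single-class microglia Cpne4 was at 54.5 to 99.4 CPM and Grin2a at 41.2 to 118 CPM, both far below the 257 to 306 and 301 to 372 CPM of other barcodes. The other 3 of the 5 most variable genes, Pik3r3, Dlgap2 and Pdzrn4, were likewise lower in single-class than in all microglia in the library where they peaked. Neuron markers were limited in single-class nuclei, so lower levels of neuronal genes there are partly fixed by that choice. Replicate 4, where Grin2a, Pik3r3 and Dlgap2 peaked, had 14.4% of its microglia in group 3, with neuronal genes, against 6.93 to 11.5% in the other libraries; the part of this share in the variation was not tested.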

How the data were processed

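Single nuclei of the septal area were profiled in 6 libraries with the Chromium 3' v3 chemistry, per the labels' protocols. The values are UMI counts per gene and barcode, deposited by the authors as filtered matrices and not normalized. The submitters' processing notes name Cell Ranger 3.1.0 and STAR, and the file headers name Cell Ranger 5.0.0. A genome build was not given in the sources used for this work.

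Raw UMIs were summed per library over each class and tested with edgeR's quasi-likelihood test (edgeR 4.0.16, R 4.3.3; TMM factors, filterByExpr, robust fit, library as a block), with Benjamini-Hochberg adjustment over all genes tested and a threshold of 0.05. The block is the library, since both sums come from it. Reference classes held at least 3 UMIs of 3 markers (Aqp4, Gja1 and Slc39a12; Mog, Mag and Ermn; Flt1, Cldn5 and Pecam1), and at most 1 of the other 2 classes' markers, of Gad1 and Gad2, and of the gate genes. Genes used by a gate were not tested. CPM is UMIs per 1000000 of the class in a library. Doublets were scored with Scrublet, with the threshold set by 0.8% per 1000 barcodes. Groups were found with scanpy 1.11.5 and leidenalg 0.10.2 (2000 variable genes, 20 components, 15 neighbours, resolution 0.5). On simulated counts for all microglia against other barcodes (18785 genes), 91% of genes changed 2-fold and 100% of those changed 4-fold were recovered, and 1.04% of calls were false. Over all simulated comparisons, 85.7 to 91.8% of 2-fold changes were recovered. False calls were 1.04 to 6.15% of calls, with the highest value for all microglia against astrocytes. The simulation changed far fewer genes than were called in the data and used a fixed spread, so it does not measure the error of these fits.

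Named genes were the 15 highest and 5 lowest against other barcodes and the 5 highest and lowest against each reference class, with at least 30 CPM and 1 direction in 6 of 6 libraries. Up to 4 genes per list were added (at least 10 CPM), and the 5 genes that varied most between libraries. Other genes were named after their values were seen. The members and lists were chosen with earlier results of these data known. Alternatives were other gate limits, doublets left out, thinning to 1000 UMIs, RLE factors, DESeq2 1.42.0, no filter, no block and each replicate left out. The fits of single-class microglia under other settings were added after seeing the data. Results of a few genes are not reported here.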

Additional observations from a re-analysis of the deposited data

Results flagged for a closer look

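The 96 values checked per library were the share of each microglial set and the levels of named genes in single-class microglia. For 10 of them, all gene levels, 1 library stood apart. Its gap to the nearest other library, divided by the range over the 6 libraries, was above Dixon's 95% critical value. Chance gives about 1 in 20. The library concerned stood at 611 CPM for Arhgap45, 118 CPM for Adgre1, 66.9 CPM for Tyrobp, 765 CPM for Entpd1 and 481 CPM for Myo1f. It stood at 155 CPM for Myo5a, 39.8 CPM for Ifih1, 12.7 CPM for Il16, 39.9 CPM for Htr7 and 11.7 CPM for Cyp2j12.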

How the results depend on the processing

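The share of microglia, 3.504% on average, was 5.78% with a gate of 2 UMIs, 2.26% with a gate of 5, 7.81% with no limit on Gad1 and Gad2, 1.92% for single-class microglia and 2.12% after thinning with a gate of 2. Without 1 replicate it was 3.35 to 3.61%. Of the counts of genes in the 4 comparisons, 185 values stayed within 1.5 times and 10 did not. Thinning to 1000 UMIs gave 2970 genes higher than in other barcodes, 2456 higher and 2537 lower than in astrocytes, 2551 and 2308 against oligodendrocytes, and 1179 and 1107 against endothelial cells. Single-class microglia gave 1569 and 1581 against endothelial cells, and 2491 higher with no filter on low counts.

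Gene list counts moved in 57 of 950 values, mostly between 0 and 3 genes. With single-class microglia, damage-associated genes had 3 higher and 6 lower, cell cycle 3 higher, immediate early genes 3 lower, cytokines 3 lower, cytokine receptors and channels 2 lower each, and phagocytosis and interferon genes 1 lower each. Thinning gave 1 higher and 5 lower damage-associated genes, 3 higher interferon genes, 4 higher cytokines, 4 higher neurotransmitter receptors, 0 cell cycle genes, 2 higher and 0 lower immediate early genes, 0 lower complement genes, 1 lower phagocytosis gene and 2 lower genes each for cytokine receptors and channels. With no filter, damage-associated, antigen presentation and cytokine lists had 2 lower and channels 1. All other kept barcodes as reference gave 2 lower cytokines and 1 lower channel, and a gate of 5 gave 2 lower cytokines and 0 lower receptors. DESeq2 gave 0 lower complement genes. Leaving out predicted doublets, or fitting with no replicate block, gave 0 lower cytokine receptors. Without 1 replicate, complement had 0 to 1 lower in the cases that moved, channels 1, cytokines 2 and signalling 0, and cell cycle had 4 higher without replicate 2. For single-class microglia, DESeq2 gave 1 lower complement gene, 0 lower phagocytosis and interferon genes and 1 higher cell cycle gene, and no filter gave 1 lower complement gene, 5 higher damage-associated genes and 14 higher cytokines. Without 1 replicate these nuclei had 1 lower complement gene, 0 lower phagocytosis and antigen presentation genes, 0 to 2 lower interferon genes and 0 higher cell cycle genes in the cases that moved. The cause was not tested.

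Cd63 went from 0.47 (log2) to -0.066 after thinning, 0.028 for single-class microglia and 0.33 without predicted doublets, none past the threshold. Thinning also ended the calls of Stat2 (0.28), Cx3cl1 (-0.45), Top2a (0.58) and Nr4a1 (-0.11). Apoe went from 0.24 to -0.30 for single-class microglia and -0.55 after thinning, and was 0.15 without replicate 3, 0.045 without predicted doublets and 0.27 with no replicate block, none of these 3 past the threshold. The fit with no replicate block moved no count of genes in the 4 comparisons by over 1.5 times. Depth limits calls for genes with few UMIs, since single-class nuclei had a median of 2737 UMIs.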
